A study of Mus musculus with 2 samples.

Results

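The matrix metalloproteases and their inhibitors were followed in the 3T3-L1 line of mouse preadipocytes, which dexamethasone, insulin and 3-isobutyl-1-methylxanthine turn into fat cells. The members are the probe sets whose single gene symbol starts with Mmp, Timp, Adam, Adamts or Adamtsl followed by a number. They comprise 124 of the 45101 probe sets of an Affymetrix mouse array and 70 of 18193 genes: 18 Mmp, 28 Adam, 15 Adamts, 5 Adamtsl and 4 Timp genes. The culture medium was DMEM with 10% FBS and 25 mM glucose. Both groups were transfected as preadipocytes, one with an siRNA against Phf21a and the other with the control siRNA siGL3. Induction followed after 24 h, with harvest another 24 h later. Phf21a encodes BHC80, a histone reader that works with the demethylase LSD1. Each group is 1 array, which leaves no replicate error, and no test or p-value is given.

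These enzymes share a zinc-dependent protease fold and are made as inactive precursors. MMPs cut collagens and other matrix proteins, either after secretion or, for the membrane-type members, at the cell surface. ADAMs are membrane proteins that shed the outer parts of growth factors, cytokine receptors and adhesion molecules, while ADAMTS enzymes are secreted and cut proteoglycans and procollagens. ADAMTS-like proteins resemble them but carry no protease domain, and TIMPs block the active site of MMPs and of some ADAMs. In fat, pericellular collagen cleavage by MMP14 is known to let adipocytes mature, and ADAM17 sheds Dlk1 (Pref-1), an inhibitor of adipogenesis.

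The upstream sequence of 5 genes is shown first, since the results turn on them. Mmp14 and Adam17 had the lowest ratios among the brighter members and Mmp23 the highest, Timp2 is the inhibitor that binds MMP14, and Mmp3 stands for a block of neighbouring Mmp genes that were mostly undetected. Each line gives 250 bases before the transcription start, 5′ to 3′ on the gene's strand, from RefSeq (GRCm38.p6). Capitals mark matches on either strand to the AP-1 motif TGANTCA, the GC box GGGCGG, the CCAAT box or the TATA motif TATAAA. The regions are chr14:54431348-54431597 (plus strand) for Mmp14, chr12:21373633-21373882 (minus) for Adam17, chr4:155653385-155653634 (minus) for Mmp23, chr11:118355412-118355661 (minus) for Timp2 and chr9:7445572-7445821 (plus) for Mmp3.
Mmp14: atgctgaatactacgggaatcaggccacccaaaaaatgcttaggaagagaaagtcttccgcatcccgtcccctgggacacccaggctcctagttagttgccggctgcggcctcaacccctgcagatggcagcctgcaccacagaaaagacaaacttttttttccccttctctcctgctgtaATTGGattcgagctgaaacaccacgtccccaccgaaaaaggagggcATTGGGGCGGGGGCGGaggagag
Adam17: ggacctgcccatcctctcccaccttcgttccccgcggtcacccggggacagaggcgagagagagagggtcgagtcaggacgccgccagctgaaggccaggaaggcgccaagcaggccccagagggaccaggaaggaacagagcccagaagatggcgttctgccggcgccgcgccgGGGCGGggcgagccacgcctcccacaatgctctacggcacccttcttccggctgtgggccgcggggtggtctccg
Mmp23: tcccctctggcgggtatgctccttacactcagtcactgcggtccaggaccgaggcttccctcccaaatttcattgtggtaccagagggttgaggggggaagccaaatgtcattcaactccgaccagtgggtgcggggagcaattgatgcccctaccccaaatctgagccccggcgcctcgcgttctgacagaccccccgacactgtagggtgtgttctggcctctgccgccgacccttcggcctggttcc
Timp2: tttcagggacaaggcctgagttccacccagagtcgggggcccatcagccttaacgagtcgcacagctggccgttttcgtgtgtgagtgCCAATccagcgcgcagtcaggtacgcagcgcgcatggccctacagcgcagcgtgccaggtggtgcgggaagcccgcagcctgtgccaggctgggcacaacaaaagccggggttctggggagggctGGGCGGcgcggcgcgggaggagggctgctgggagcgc
Mmp3: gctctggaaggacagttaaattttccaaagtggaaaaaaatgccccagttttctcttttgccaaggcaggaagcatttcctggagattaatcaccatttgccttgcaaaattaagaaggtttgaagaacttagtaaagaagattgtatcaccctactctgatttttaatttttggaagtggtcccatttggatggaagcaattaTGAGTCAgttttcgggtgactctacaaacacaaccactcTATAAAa

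Of these motifs, AP-1 was present in 6.75% of the 32851 upstream windows of this length in the RefSeq table, the GC box in 32.7%, CCAAT in 33.8% and the TATA motif in 12.4%. Mmp14 had 2 GC boxes and 2 CCAAT boxes, of which 1 pair overlapped by 1 base. Adam17 had 1 GC box, and Timp2 had 1 GC box and 1 CCAAT box. Neither window listed for Mmp23 held any of the 4 motifs. Mmp3 had 1 AP-1 motif, starting 46 bases before the start, and 1 TATA motif. A match is a description of letters and not of a bound site.

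The values are MAS5 signals, and each ratio is the log2 of the Phf21a siRNA signal over the control siRNA signal. A probe set counted as detected when it reached 51.3, the pooled median of signals, on at least 1 array. A gene was read from its brightest detected probe set, from an _x_at one only where no other was detected. Signals under a floor of 12.9 are given without a ratio. The value after ± is a local spread, the scatter of ratios among the 1000 detected genes nearest in signal, which covers the central 68% of them. It describes 1 array against 1 array and is not an error between cultures. Phf21a itself had signals of 768 (control siRNA) and 306 (Phf21a siRNA). Between the arrays, the median over all 11301 detected genes was a log2 ratio of 0.029. Scaling to the spiked poly-A controls moved that median to -0.66, and scaling to the hybridisation controls moved it to -0.24, so every direction below is relative to the other genes on the array.

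Of the 70 genes 36 were detected, made up of 10 Mmp, 11 Adam, 10 Adamts, 2 Adamtsl and 3 Timp genes. Over the whole array 11301 of 18193 genes were detected, a larger share. Among the 31 detected proteases (Mmp, Adam and Adamts), 6 were higher by 1.5-fold or more after the Phf21a siRNA and 5 were lower by as much. Over all detected genes these shares were 15.2% and 13.9%, close to the proteases' 19.4% and 16.1%. Mmp7 and Adamts8 among those higher and Mmp9 among those lower had their other signal under the floor. The proteases had a median log2 ratio of 0.052, with 16 above 0 and 15 below. Scaling to the poly-A controls gave 3 proteases higher and 17 lower, where 3.09% and 56.0% of all detected genes passed the same fold. Scaling to the hybridisation controls gave 4 and 12, beside 7.98% and 25.9% of all genes. Beyond the local spread were 12 of the 36 members, or 33.3%, against 33.1% of all detected genes. The members' shares were thus near those of the array, and the genes below are described one by one.

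**Figure D1:**
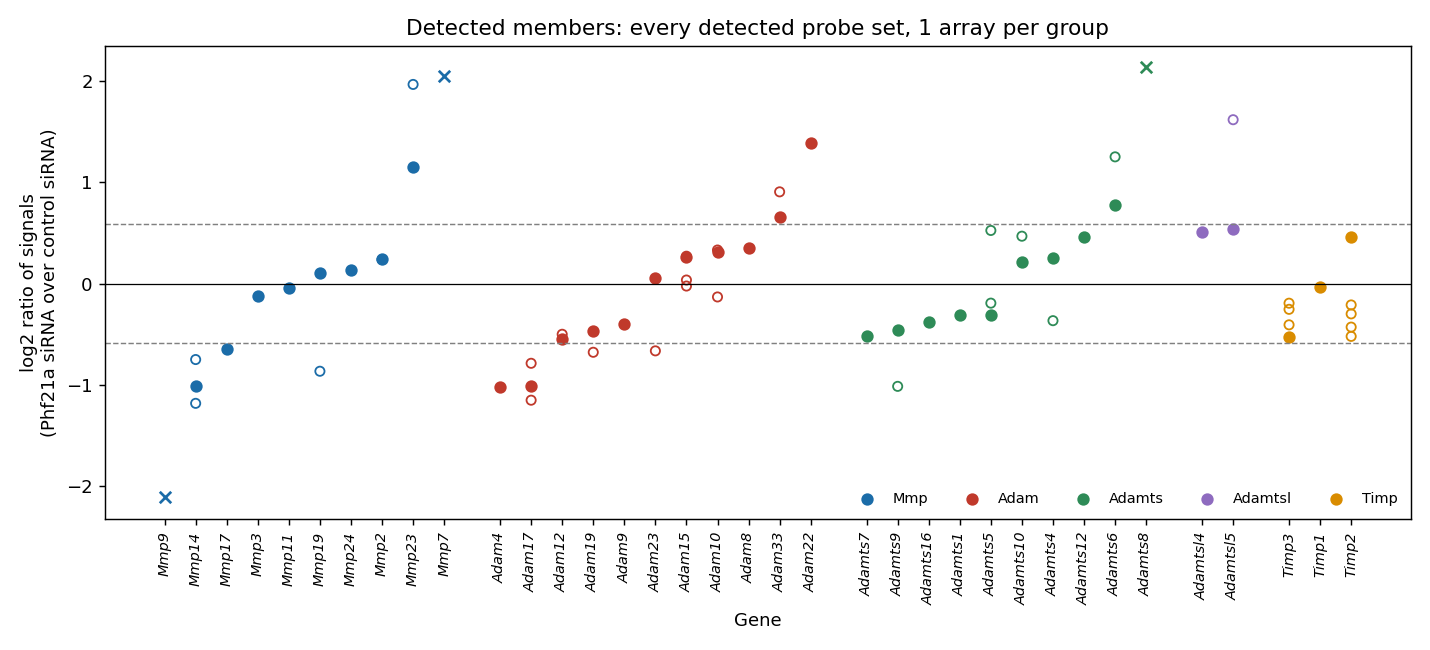
Log2 ratio of signals (Phf21a siRNA over control siRNA, y axis) for the 36 detected member genes (x axis), by family. Filled points are the brightest detected probe set of a gene, an _x_at one only where no other was detected. Open points are the gene's other detected probe sets. Crosses are brightest probe sets with 1 signal under the floor of 12.9, and dashed lines mark 1.5-fold. Mmp14 and Adam17 have all 3 probe sets below the lower line, Mmp23 has both above the upper line, and no detected Timp probe set lies outside the lines.

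Mmp14 encodes the membrane-type collagenase that activates pro-MMP2 at the cell surface (Entrez gene 17387). Its brightest probe set had a signal of 3055 with the control siRNA and 1517 with the Phf21a siRNA, 2.01-fold lower (-1.01 ± 0.45). The other detected probe sets went from 1773 to 781 (-1.18) and from 316 to 188 (-0.75). All 3 were thus lower after the Phf21a siRNA, each by more than 1.5-fold. The gene was lower under all 11 alternative settings, from -1.70 to -0.98. Not all of these could move it: other floors and detection limits left a gene this bright at -1.01. In bulk RNA, fewer cells expressing a gene and less RNA per cell cannot be told apart, here and for every gene below.

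MMP2, the gelatinase that MMP14 activates, showed no such difference in its transcript. Mmp2 had signals of 2837 and 3357 (0.24 ± 0.41), and its second probe set had 2542 and 2997 (0.24). The sign of Mmp2 turned under both control scalings, down to -0.45. Mmp9, the other gelatinase, was near background: its brighter probe set had signals of 55.6 (control siRNA) and 2.90 (Phf21a siRNA). A second Mmp9 probe set was undetected at 48.2 and 15.4. Both Mmp9 probe sets were lower after the Phf21a siRNA, but no more than 1 signal reached the detection limit, and by a small margin.

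Besides Mmp14, 3 other membrane-type MMP genes were on the array. Mmp17, which is anchored by a lipid tail, had signals of 60.9 and 38.9, (-0.65 ± 0.92). The second signal was under the detection limit, and raising it there gave -0.25. Mmp24 had 106 and 116 (0.13), and Mmp16 was undetected on all 4 probe sets.

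Mmp23 encodes a small membrane-anchored MMP that lacks the usual cysteine switch and hemopexin domain (Entrez gene 26561). It was the highest of the brighter members, with signals of 327 with the control siRNA and 725 with the Phf21a siRNA, 2.22-fold higher (1.15 ± 0.52). Its second probe set went from 214 to 837 (1.97), so both were higher after the Phf21a siRNA. All 11 alternatives kept Mmp23 higher, from 0.46 to 1.56, and the lowest came from poly-A scaling. Other floors and detection limits could not move it and left 1.15. Mmp7, matrilysin, had signals of 3.97 and 53.4 on its only probe set, the first under the floor and the second just over the detection limit.

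The remaining detected Mmp genes are described beyond the rule for named genes, after their values were seen. Mmp3, a stromelysin that also activates other proenzymes, had signals of 95.9 and 87.9 (-0.13 ± 0.72). Mmp11, another member first named a stromelysin, had 263 and 256 (-0.039 ± 0.58). Both differed by far less than the local spread. Mmp19 had 228 and 245 on its brightest probe set (0.10) but 248 and 136 on the other (-0.87), so its direction is not settled.

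In RefSeq gene order, Mmp13, Mmp12, Mmp1b, Mmp3, Mmp1a, Mmp10, Mmp8, Mmp27, Mmp20 and Mmp7 form an unbroken run of 10 protein-coding neighbours. Of these, 9 were on the array, and 2 were detected, Mmp3 on both arrays and Mmp7 on 1. Every secreted collagenase gene measured (Mmp1a, Mmp1b, Mmp8 and Mmp13) belongs to this run and was undetected. Upstream windows were listed for 9 genes of the run. Those of 8 genes held an AP-1 motif and those of 7 a TATA motif, whereas 0 held a GC box. Among the 32 other members with a listed window, 2 had an AP-1 motif, 4 a TATA motif and 19 a GC box. The median GC content was 40.4% in the run and 62.8% in the other members. The table lists windows for 41 of the 70 members, and these counts describe letters in those windows only.

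**Figure D2:**
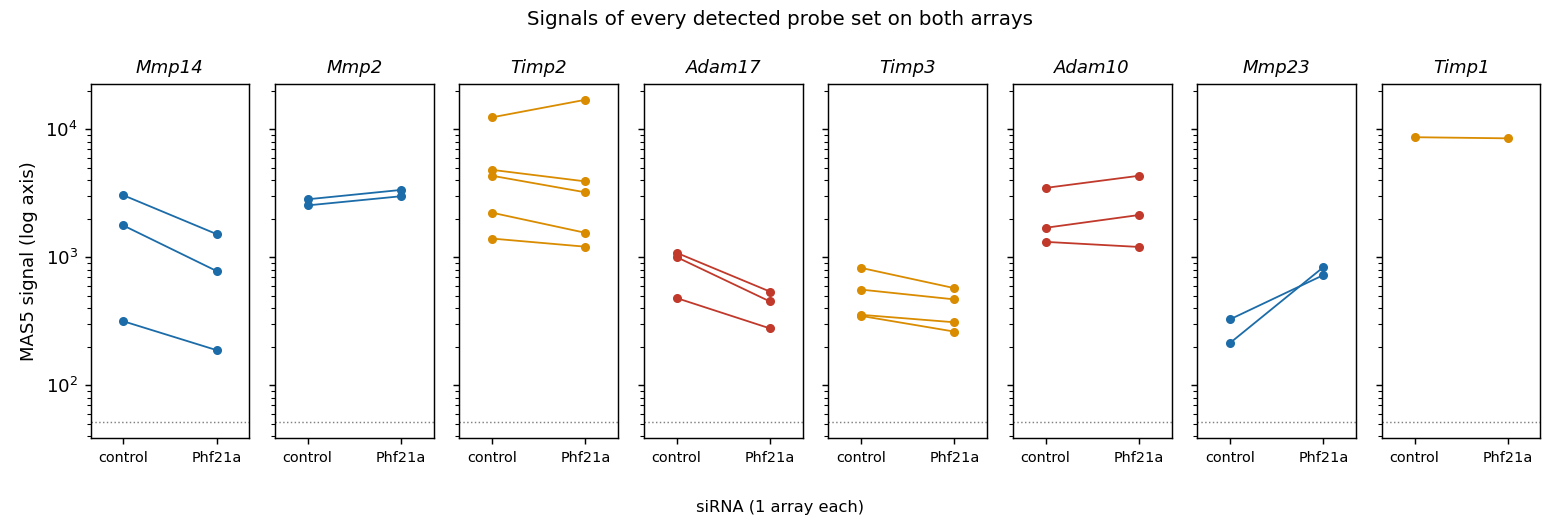
MAS5 signal on a log axis (y) on the control siRNA and Phf21a siRNA arrays (x, 1 array each) for the detected probe sets of 8 genes; each line is 1 probe set and the dotted line is the detection limit of 51.3. The lines of Mmp14 and Adam17 run down and those of Mmp23 run up, while Timp2 has 1 line going up and 4 going down; levels of different probe sets cannot be compared.

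Adam17 encodes TACE, the main sheddase of tumour necrosis factor and of several EGF receptor ligands (Entrez gene 11491). Signals on its brightest probe set were 1083 with the control siRNA and 539 with the Phf21a siRNA, 2.01-fold lower (-1.01 ± 0.51). The other probe sets went from 1003 to 451 (-1.15) and from 480 to 278 (-0.79). As for Mmp14, all 3 were lower after the Phf21a siRNA by more than 1.5-fold. Across the 11 alternatives the gene stayed lower, between -1.70 and -0.98. Here too the other floors and detection limits could not move it and left -1.01.

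Adam10, the closest relative of Adam17 and the chief sheddase of Notch receptors, did not share this difference. It had signals of 3481 and 4331 (0.32 ± 0.37), and its other detected probe sets gave 0.33 and -0.13. The sign of Adam10 turned under poly-A scaling, at -0.38. Another Adam10 probe set was undetected at 36.4 and 13.6.

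Adam9 and Adam12, membrane proteases of mesenchymal cells, were lower by less than 1.5-fold. Adam9 had signals of 7136 and 5422 (-0.40 ± 0.34), and Adam12 had 1405 and 963 (-0.55 ± 0.47), with a second probe set at -0.50. Both ratios exceeded the local spread by a small margin. Adam19, a relative of Adam12 named after its values were seen, had 311 and 225 (-0.47 ± 0.57) and a second probe set at -0.68.

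The Adam genes past 1.5-fold other than Adam17 were all dim. Adam4, known mainly from testis, had signals of 138 and 68.3 on its single probe set (-1.02 ± 0.71). Markers of testis and sperm were undetected in 7 of 7 cases, with summed signals of 122 and 150. Adam33 had 71.7 and 113 (0.66 ± 0.71), but stood at -0.033 under poly-A scaling. A second Adam33 probe set had 29.3 and 54.9 (0.91), and raising the first of these signals to the detection limit gave 0.10. Adam22, which lacks the zinc-binding residues and acts as a receptor, had 34.4 and 89.8 (1.39 ± 0.79), and raising the first signal to the detection limit gave 0.81. Adam23, likewise without protease activity, had 350 and 363 on its brightest probe set (0.052) and 193 and 122 on another (-0.66).

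Further Adam genes, also named after their values were seen, stayed within the local spread. Adam8, best known from leukocytes, had 286 and 367 (0.36 ± 0.56). Adam15 had 229 and 273 (0.26 ± 0.58), and its 4 detected probe sets ranged from -0.024 to 0.27. The other 17 Adam genes were undetected, with no signal above 31.1. They include many that are known from male germ cells (Adam1a, Adam1b, Adam2, Adam3, Adam5, Adam18, Adam21, Adam24, Adam25, Adam26a, Adam32 and Adam34) and Adam6a, Adam6b, Adam7, Adam11 and Adam28.

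Of the 10 detected secreted ADAMTS proteases, 2 were higher by 1.5-fold or more, both of them dim, and 0 were lower by as much, beside 15.2% and 13.9% of all detected genes. Their median log2 ratio was -0.046. Under poly-A scaling 1 was higher and 5 were lower (all genes 3.09% and 56.0%), and under hybridisation scaling 1 and 4 (7.98% and 25.9%). Adamts6 had signals of 55.1 and 94.4 (0.78 ± 0.70) and a second probe set at 25.9 and 61.6 (1.25). Adamts8 had 6.23 and 56.5, the first under the floor and the second close to the detection limit.

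Among ADAMTS enzymes that cut aggrecan and versican, the brighter genes stayed within the local spread. Adamts1 had 1626 and 1308 (-0.31 ± 0.47). Adamts4 had 307 and 365 (0.25 ± 0.56), with a second probe set at -0.37, and Adamts5 had 218 and 176 (-0.31 ± 0.61), with other detected probe sets at -0.19 and 0.53. Adamts9 had 189 and 138 (-0.45 ± 0.62), and a dim second probe set went from 51.6 to 25.5. Probe sets of Adamts4 and Adamts5 thus disagreed in sign. Adamts4, Adamts5 and Adamts9 were named after their values were seen.

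Adamts10, which binds fibrillin microfibrils, had 316 and 367 (0.22 ± 0.55), and Adamts12 had 284 and 391 (0.46 ± 0.56). Both signs turned under poly-A scaling, at -0.48 and -0.23. Under hybridisation scaling Adamts10 turned as well (-0.056), while Adamts12 did not (0.19). The dim Adamts7 (73.0 and 51.1, -0.52) and Adamts16 (118 and 90.9, -0.38), picked after their values were seen, stayed within the local spread too. Adamts3, Adamts15, Adamts18, Adamts19 and Adamts20 were undetected, none above 27.6.

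Of the ADAMTS-like genes, which encode matrix proteins without a protease domain, 2 of 5 were detected and both were higher by less than 1.5-fold. Adamtsl4, a microfibril component, had signals of 189 and 269 (0.51 ± 0.59). Adamtsl5 had 156 and 227 (0.53 ± 0.62), and a second probe set went from 45.4 to 140 (1.62). Both genes turned below 0 under poly-A scaling, at -0.19 for Adamtsl4 and -0.16 for Adamtsl5. Adamtsl1, Adamtsl2 and Adamtsl3 were undetected, with 48.8 as their highest signal.

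Among the inhibitors, 0 of 3 detected Timp genes passed 1.5-fold in either direction, beside 29.1% of all detected genes, so this count does not set them apart. Under poly-A scaling 2 were lower by as much, where 56.0% of all genes were, and under hybridisation scaling 1, where 25.9% were. Timp1, the broad secreted inhibitor, had signals of 8669 and 8495 (-0.029 ± 0.32). Timp3, which is bound to the matrix and is the main inhibitor of ADAM17, had 825 and 573 on its brightest probe set, 1.44-fold lower (-0.53 ± 0.53). All 4 of its probe sets were lower, from -0.53 to -0.19. Timp4 was undetected on both probe sets, at 37.8 and 27.5 on the brighter.

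Timp2, which both inhibits MMPs and bridges MMP14 to pro-MMP2, gave probe sets in opposite directions. Its brightest had 12401 with the control siRNA and 17008 with the Phf21a siRNA (0.46 ± 0.29). The other detected probe sets went from 4816 to 3914 (-0.30), from 4331 to 3215 (-0.43), from 2227 to 1552 (-0.52) and from 1399 to 1209 (-0.21). So 4 of 5 were lower and 1 was higher, and the direction of Timp2 is not settled. The mean over probe sets was -0.20.

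Proteases and inhibitors were set side by side by their medians, 0.052 for the 31 proteases and -0.029 for the 3 Timp genes, a difference of 0.082. With the second-brightest Timp2 probe set the difference was 0.35. Without Adam22 and Adam23 it was -0.0096, and with detection set at the 75th percentile of signals it was -0.28. The sign of the contrast therefore depended on which genes were counted. The choice of Timp2 probe set changed its size but not its sign. Read gene by gene, Mmp14 was lower on 3 of 3 probe sets while its partner Timp2 was lower on 4 of 5. Adam17 was lower on 3 of 3 while Timp3 was lower on 4 of 4. The brightest Timp2 probe set was higher (0.46 ± 0.29), however, and the brightest of Timp3 stayed within the local spread (-0.53 ± 0.53). Probe sets share the same arrays and are not replicates, so these tallies do not show that enzyme and inhibitor changed together. Other bright proteases, such as Mmp2 (0.24), Adam10 (0.32), Adamts1 (-0.31) and Adam9 (-0.40), lay between the brightest Timp3 and Timp2 probe sets. Adam12 (-0.55) lay just outside. For Mmp2 and Adam10 this rests on the brightest Timp2 probe set, the only detected Timp probe set above 0.

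**Figure D3:**
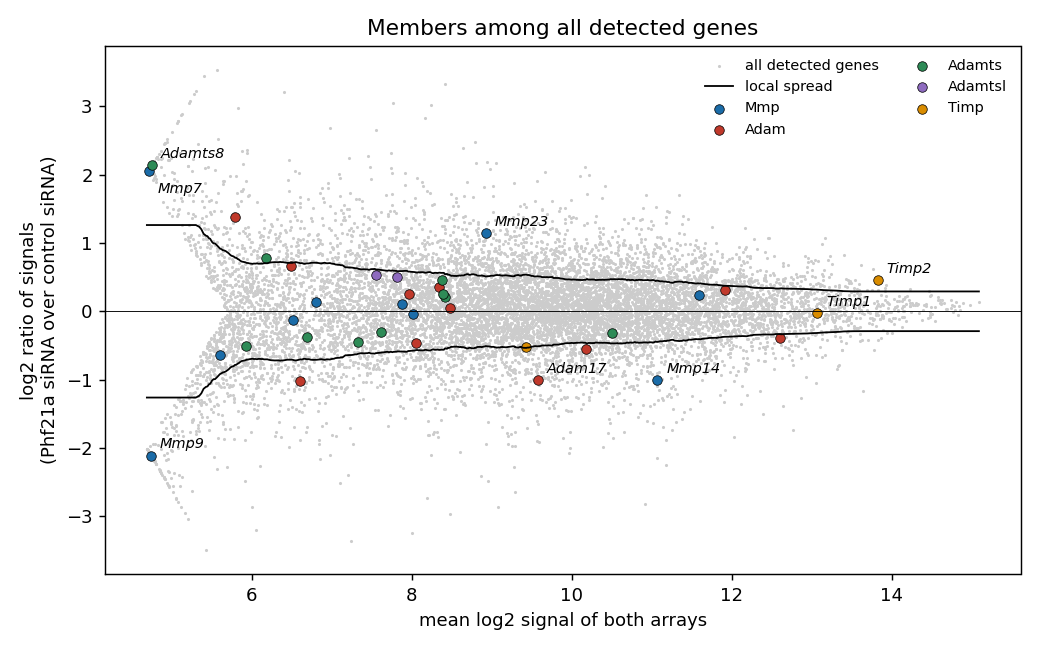
Log2 ratio (Phf21a siRNA over control siRNA, y axis) against the mean log2 signal of both arrays (x axis) for the 11301 detected genes (grey) and the 36 members (coloured by family); black lines are the local spread above and below 0. Mmp14, Adam17 and Mmp23 lie outside the spread at higher signals, whereas Mmp7, Mmp9 and Adamts8 lie at the dim end, where 1 of their signals was under the floor.

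Restriction to brighter genes left fewer members. Of 8 proteases whose higher signal reached the 75th percentile (461), 1 was at least 1.5-fold higher (Mmp23) and 2 were lower (Mmp14 and Adam17), against 12.9% and 10.1% of the 7135 such genes. With both signals over the detection limit, 25 proteases remained, 3 higher and 3 lower, against 13.6% and 11% of genes chosen in that way. Of 19 members with several detected probe sets, 12 had all of them in 1 direction (63.2%), beside 61.4% of all such genes. The other 17 detected members rest on 1 detected probe set.

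Other genes of the same systems came from lists of partners, substrates and related enzymes, whose counts stand beside the array's 15.2% higher and 13.9% lower, or 3.09% and 56.0% under poly-A scaling. Zymogen activators and surface partners had a median of 0.038, with 0 of 12 detected genes past 1.5-fold upward and 1 downward, or 9 downward under poly-A scaling, where 56.0% of all genes were lower. The exception was Plat, tissue plasminogen activator, with signals of 1549 and 805 (-0.94 ± 0.46). Furin, the convertase that activates MMP14 and many ADAMs, had 849 and 717 (-0.24 ± 0.51). The list of inhibitors outside the TIMP family had 0 of 3 detected genes past 1.5-fold upward and 1 downward. The lower gene was Reck, a membrane-anchored inhibitor of MMP14, MMP2 and MMP9, with 222 and 136 (-0.70 ± 0.61). Tfpi2 was higher by less than 1.5-fold, with 336 and 497 (0.57 ± 0.54). The other gene, Pcolce (0.084 ± 0.29), encodes an enhancer of procollagen cleavage and not an inhibitor. Plat, Furin, Reck, Tfpi2 and Pcolce were picked after their values were seen.

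Genes that mature Adam10 and Adam17 were mixed, 2 of 6 being higher by 1.5-fold or more and 1 lower (median 0.12), beside 15.2% and 13.9% of all detected genes. Under poly-A scaling these were 0 and 3, beside 3.09% and 56.0%. Frmd8, which stabilises the iRhom and ADAM17 complex, had 774 and 1453 (0.91 ± 0.46). Rhbdf1 and Rhbdf2, the iRhoms that carry ADAM17 to the surface, were at -0.35 ± 0.46 and 0.18 ± 0.61. The tetraspanin genes past 1.5-fold, which escort ADAM10, were Tspan17 (0.72 ± 0.50) and Tspan5 (-0.69 ± 0.53). Their other detected probe sets were within 1.5-fold, at 0.34 for Tspan17 and -0.23 for Tspan5. The genes named here were picked after their values were seen.

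Shed substrates of both ADAMs went both ways, and of 19 detected genes 5 were higher by 1.5-fold or more and 4 lower (median 0.18), beside 15.2% and 13.9% of all detected genes. Under poly-A scaling these were 1 and 8, beside 3.09% and 56.0%. Those past 2-fold included Ereg, the EGF receptor ligand epiregulin, at 3613 and 1523 (-1.25 ± 0.43). Kitl, stem cell factor, had 1744 and 3854 (1.14 ± 0.44), and Mertk, a phagocytic receptor, had 113 and 304 (1.42 ± 0.62). Dlk1 (-1.05 ± 0.32) and the chemokine Cx3cl1 (-2.11 ± 0.70) were the other 2. Cx3cl1 had signals of 262 and 60.8, the second close to the detection limit. Notch2, named after its value was seen, was counted as higher at 0.77, but its other detected probe set was at -0.48. Shedding itself was not measured.

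ADAMTS substrates had a median of -0.38, and of 6 detected genes 0 were higher by 1.5-fold or more and 2 lower, beside 15.2% and 13.9% of all detected genes. Under poly-A scaling 6 were lower, beside 56.0%. Versican (Vcan), the main substrate of ADAMTS1 and its relatives, had 11264 and 7113 (-0.66 ± 0.31), although its 6 probe sets reached 0.050. Decorin (Dcn) had 329 and 57.5 on its 1 detected probe set (-2.51 ± 0.68), the second signal close to the detection limit. Vcan was named after its value was seen.

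Metalloproteases outside the name pattern were higher more often than not, 5 of 7 detected genes passing 1.5-fold upward and 0 downward (median 0.62), beside 15.2% of all detected genes. Tll1, a tolloid protease that trims procollagens and frees BMPs, had signals of 255 and 632 (1.31 ± 0.53). Bmp1, its close relative, had 1195 and 1819 (0.61 ± 0.47), and the carboxypeptidase Cpe had 11242 and 17259 (0.62 ± 0.29). The dim Mep1a and Pappa2 were at 0.82 and 0.76, each with a local spread of 0.72. Genes other than Tll1 were picked after their values were seen. Poly-A scaling left 1 of the 7 higher and 2 lower (all genes 3.09% and 56.0%), and hybridisation scaling 1 and 1 (7.98% and 25.9%).

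Markers of other cell types bear on members that leukocytes also express, such as Mmp9 and Adam8. Leukocyte markers were detected in 3 of 8 cases, all higher (Csf1r 1.18, Cd68 0.89, Lyz2 0.42). The 3 detected probe sets of Csf1r ranged from 0.18 to 1.18. Summed signals of all 8 markers were 383 and 704. The defining Ptprc (6.87 and 12.2) and Tyrobp (4.66 and 6.32) were near 0 and undetected. Also undetected were Cd52 (1.61 and 3.87), Adgre1 (36.2 and 23.5) and Itgam (15.8 and 15.3), the last 2 with the lower signal after the Phf21a siRNA. Preadipocyte and fibroblast markers were detected in 6 of 7 cases and differed in direction: Dlk1 was at -1.05 and Pdgfrb at 0.84, while Col1a1 (-0.58), Thy1 (-0.30), Pdgfra (-0.16) and Col1a2 (0.060) were within 1.5-fold. Of the adipocyte markers 4 of 6 were detected, Fabp4 at 0.74, Pparg at 0.67, the dim Cd36 at 0.50 and Lpl at -0.15, with Adipoq and Cebpa undetected. Their part in the differences was not tested.

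**Figure D4:**
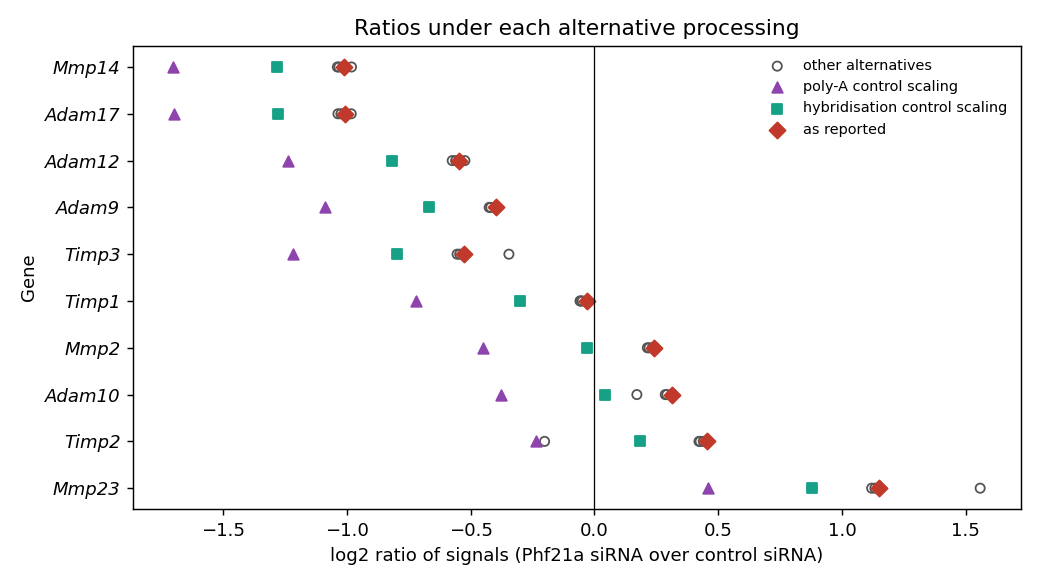
Log2 ratio (Phf21a siRNA over control siRNA, x axis) of 10 members (y axis) as reported and under each alternative processing. Mmp14 and Adam17 stay at or below -0.98 and Mmp23 at or above 0.46, whereas Timp2, Mmp2 and Adam10 lie on both sides of 0.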

How the data were processed

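Total RNA (1 ug) of each group was hybridised to 1 Affymetrix mouse array. The authors deposited linear signal intensity, which MAS5 (version not given in the sources used here) produced per the submitters' processing notes. Both arrays had a trimmed mean of 500 (2% left out at each end), so a change in total mRNA per cell cannot be seen. The number of arrays limits the precision.

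Of 45101 probe sets, 64 were controls, 34945 had 1 gene, 932 several and 9160 none. All 70 member genes matched a RefSeq gene by Entrez number, and 5 probe sets shared with another gene were not used. A pooled 25th percentile served as floor and the pooled median as detection limit, both without controls. Each gene was read from the brightest of its detected probe sets, _x_at ones only where no other was detected. The local spread spans the 16th to the 84th percentile of log2 ratios in the nearest 1000 genes, divided by 2.

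Named by rule were all Timp genes, members at least 1.5-fold higher or lower, the 3 brightest genes of each family, Adam10, Adam17, Mmp14, and listed partners past 2-fold. The members, lists and rules were chosen with earlier results of these data known. Alternatives were other normalizations, floors, probe set rules, detection limits and cutoffs; 3 were added after seeing the data. Scripts were tested on simulated data. Software was matplotlib 3.10.9, statsmodels 0.14.6, scipy 1.17.1, pandas 2.3.3 and numpy 2.4.6 under Python 3.11.15.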

Additional observations from a re-analysis of the deposited data

How the results depend on the processing

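Counts of proteases at least 1.5-fold higher (6) and lower (5) depended on the scaling and on dim genes. Poly-A scaling gave 3 and 17, where 3.09% and 56.0% of all genes passed, and hybridisation scaling gave 12 lower, beside 25.9% of all genes. With the detection limit as floor 3 of 31 were lower, beside 11.3% of all genes. The stricter limit left 1 and 2 of 9 proteases, beside 13% and 10.2% of the genes it kept. Adam15 is among these 9 because only its _x_at probe set (847 and 833) reached that limit. Without a limit 12 and 8 of 61 proteases passed, beside 14.2% and 15.7% of all genes. A 3-fold cutoff left 2 and 1 of 31, beside 1.68% and 1.87%. Requiring both signals over the limit, added after seeing the data, left 3 and 3 of 25, beside 13.6% and 11%. The protease median (0.052) was -0.64 under poly-A scaling, -0.22 under hybridisation scaling, -0.059 with probe sets averaged, -0.31 with the stricter limit and -0.039 without Adam22 and Adam23 (added). The Timp median (-0.029) was -0.72 and -0.30 under those scalings, -0.20 with probe sets averaged, -0.25 without a limit and -0.30 with the second-brightest Timp2 probe set (added). The protease minus Timp median (0.082) was -0.28 with the stricter limit, 0.25 without a limit, -0.0096 without Adam22 and Adam23, and 0.35 with the second Timp2 probe set. Both control scalings shift all genes alike, and limits change which genes are counted; for the other settings the cause was not tested. Adam33 stood at -0.033 under poly-A scaling. Apart from both control scalings, which shift every gene by 1 amount, 6 of 194 values of single named members moved by more than the local spread: those of Mmp7, Mmp9 and Adamts8 with the floor at the detection limit, of Mmp7 and Mmp9 with a pseudocount, and of Timp2 with probe sets averaged. Floors and detection limits cannot move the ratio of a bright gene, so these settings say little about such genes. Signals near 51.3 limit Mmp7, Mmp9, Mmp17, Adamts8 and Adam22. No paired analysis was possible because each group is 1 array.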
